A study of Mus musculus with 16 samples.

Results

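The colony-stimulating factor, insulin-like growth factor and platelet-derived growth factor genes Csf1, Igf1, Pdgfa and Pdgfb, and the receptor genes Csf1r, Csf2ra, Csf2rb, Csf2rb2, Csf3r and Igf1r, were followed in RAW 264.7 cells, a mouse macrophage-like line. These 10 genes were named in advance by symbol, out of 52636 gene entries in the files, and all 10 were found. Of the 10, 9 passed the filter on low values and were tested. Csf3r, which encodes the granulocyte colony-stimulating factor receptor, did not pass it. The members and the accompanying gene lists were chosen with earlier results of these data known.

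The cells were given a control siRNA or one that targets Cebpb, which encodes the transcription factor C/EBPβ. Some cells of each kind then received isoproterenol, which activates β-adrenergic receptors and so increases cyclic AMP. The 4 groups were therefore control siRNA, control siRNA with isoproterenol, Cebpb siRNA, and Cebpb siRNA with isoproterenol. Each group held 4 libraries, 2 from each of 2 experiments. Cells had been exposed to 25 nM siRNA for 24 h when isoproterenol was added. Only 1 siRNA product targeted Cebpb, so an effect of that product and an effect of lower Cebpb cannot be told apart. The sources used here give neither the dose of isoproterenol nor how long it acted.

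Macrophages depend on colony-stimulating factors. CSF-1, the product of Csf1, acts through the receptor tyrosine kinase encoded by Csf1r and keeps cells of this lineage alive and dividing. GM-CSF acts through an α chain encoded by Csf2ra and a β chain encoded by Csf2rb, which is shared with the receptors for interleukin-3 and interleukin-5, while the mouse paralogue Csf2rb2 encodes a β chain used by interleukin-3. Macrophages also secrete IGF-1 and the platelet-derived growth factors A and B, which act on fibroblasts and other cells of a tissue.

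Depth ran from 9.42 to 25.17 M reads per library, with 5.81 to 15.9 M assigned to genes, and the shallowest library was that of Cebpb siRNA in experiment 2 replicate 2. Cebpb was at 61.3 to 87.3 reads per 1e+06 sequenced reads (RPM) with the control siRNA and at 11.8 to 33.1 RPM with the Cebpb siRNA, and at 78.0 to 101 and 23.9 to 28.5 RPM in the corresponding groups with isoproterenol. The groups with and without the Cebpb siRNA did not overlap in Cebpb. Between 5.14 and 5.94% of the reads were unmapped in the control siRNA group and between 6.32 and 7.61% in the Cebpb siRNA group. The mitochondrial ribosomal RNA mt-Rnr2 was at 17260 to 20170 RPM and 24910 to 27700 RPM in these groups, and at 20860 to 21940 and 27610 to 39130 RPM in the corresponding groups with isoproterenol, with no overlap between the siRNAs. All 12 macrophage identity genes examined passed the filter. Their summed level was 1640 to 2040 RPM with the control siRNA and 2290 to 2700 RPM when isoproterenol was added to it. It was 1790 to 1880 RPM with the Cebpb siRNA and 1960 to 2240 RPM with both. Lyz2 had the largest mean of these genes, at 766 RPM. The Cebpb siRNA gave 7 of the 12 called higher and 3 lower, against 30.9% and 30.4% of all tested genes (limma). In the presence of isoproterenol 6 were higher and 4 lower, against 31.6% and 30.3%. The largest of these changes were falls of Cx3cr1 (log2 −2.335 without and −2.585 with isoproterenol) and Fcgr1 (−1.38 and −1.552). Of the markers of other cell types, 9 of 10 neutrophil genes, 8 of 10 fibroblast genes, 4 of 8 endothelial genes, 5 of 8 dendritic cell genes, 6 of 9 osteoclast genes and 7 of 7 mast cell genes were listed at 0 in all 16 libraries. Of the osteoclast markers, Acp5, Ctsk, Oscar, Calcr, Ocstamp and Atp6v0d2 were at 0. Their sum was therefore that of Mmp9 (mean 153 RPM), Dcstamp (28.3 RPM) and Nfatc1 (10.6 RPM). It stood at 98.8 to 181 RPM with the control siRNA and 219 to 244 RPM with the Cebpb siRNA. In the corresponding groups with isoproterenol it stood at 134 to 235 and 189 to 225 RPM. The summed neutrophil markers, all but S100a8 at 0, stood at 2.28 to 3.48, 0 to 1.05, 4.44 to 5.84 and 0 RPM in the same order. The summed dendritic cell markers stood at 9.35 to 10.6, 3.61 to 8.47, 7.35 to 9.98 and 4.25 to 7.73 RPM in that order, with Flt3, Xcr1, Siglech, Clec9a and Ccr7 at 0. Of these markers 2 were tested, and they differed in direction. Batf3 was called lower with the Cebpb siRNA (log2 −1.99, adjusted p = 1.23e-09, limma, and −1.70 with isoproterenol). Zbtb46 was not called without isoproterenol (log2 0.15) and was called higher with it (0.32, adjusted p = 0.0322, limma). The part of these marker differences, of mt-Rnr2 and of the unmapped share in the results that follow was not tested.

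Sequence was examined first in the 3′ UTR, for the 7-base word AACTTGT, which an earlier analysis of these libraries had singled out. Levels by this word were not compared here. Of the 9 tested members, 2 hold the word, Csf1 and Igf1, which is 22.2% against 15.4% of 10127 tested genes with an annotated 3′ UTR. The 2 sites are shown because they are the only full matches among the tested members, 5′ to 3′ on the strand of the gene in GRCm38, with the word in capitals; the Csf1 site lies at chr3:107741692-107741721 on the minus strand and the Igf1 site at chr10:87936348-87936377 on the plus strand.
Csf1: tgtttacttccAACTTGTtctgatgccctc
Igf1: tgcccaaagtgAACTTGTgtaaagtaggaa
The 6-base core ACTTGT occurs in 4 of the 9 members, or 44.4% against 39.3% of the tested genes. The other carriers of the core are Csf2rb2 and Igf1r. Csf1r, Csf2ra, Csf2rb, Pdgfa and Pdgfb hold neither the word nor the core. Since the word came from these same libraries, its presence is a description and supports nothing, and its part in the levels of Csf1 and Igf1 was not tested.

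Promoters of 7 members, 8 in all, were available from RefSeq on GRCm38.p6, each covering 250 bases before to 50 bases after the start. The C/EBP word TTGCNNAA, searched on both strands, was in 0 of the 8 and in 10.8% of 32851 promoters. The cyclic AMP response element TGACGTCA, a palindrome, was in 1 of the 8 and in 1.79% of all promoters. That promoter belongs to Csf2ra, where the element begins 92 bases before the start. It is shown with its flanks and in capitals because it is the only match in the 8 promoters searched, at chr19:61228492-61228521 on the minus strand. The promoters of Csf1r, Csf2rb and Pdgfb were not searched.
Csf2ra: cccgcccccggTGACGTCAccgggccccac
A match is a run of letters in this window and not a site shown to be bound, and Csf2ra did not pass the test for isoproterenol in either siRNA group, as given below.

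With the Cebpb siRNA the growth factor genes moved apart. Csf1 fell 3.3-fold and Igf1 2.4-fold while Pdgfa rose 2.41-fold, and Pdgfb did not pass the test. With isoproterenol present the same 3 genes were called, in the same directions. Among the receptors, Csf1r and Csf2ra rose, Csf2rb fell, and Igf1r did not pass the test. Without isoproterenol, 3 of the 9 tested members were called higher and 3 lower at an adjusted p of 0.05 (limma, adjusted over all 11060 genes tested). The background was 30.9% of all tested genes called higher and 30.4% called lower, so 6 of 9 members stood against a background in which most genes changed. With isoproterenol present in both groups, 4 members were called higher and 3 lower, against 31.6% and 30.3% of all genes. Without the scaling of libraries the genes called were 2726 higher and 3917 lower without isoproterenol and 2976 and 3761 with it, against 3416 and 3367, and 3500 and 3354, with scaling. The median size of the log2 difference was 0.61 over the members and 0.35 over all genes without isoproterenol, and 0.62 and 0.36 with it. In these bulk samples, fewer cells of a type and less RNA per cell cannot be told apart.

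**Figure D1:**
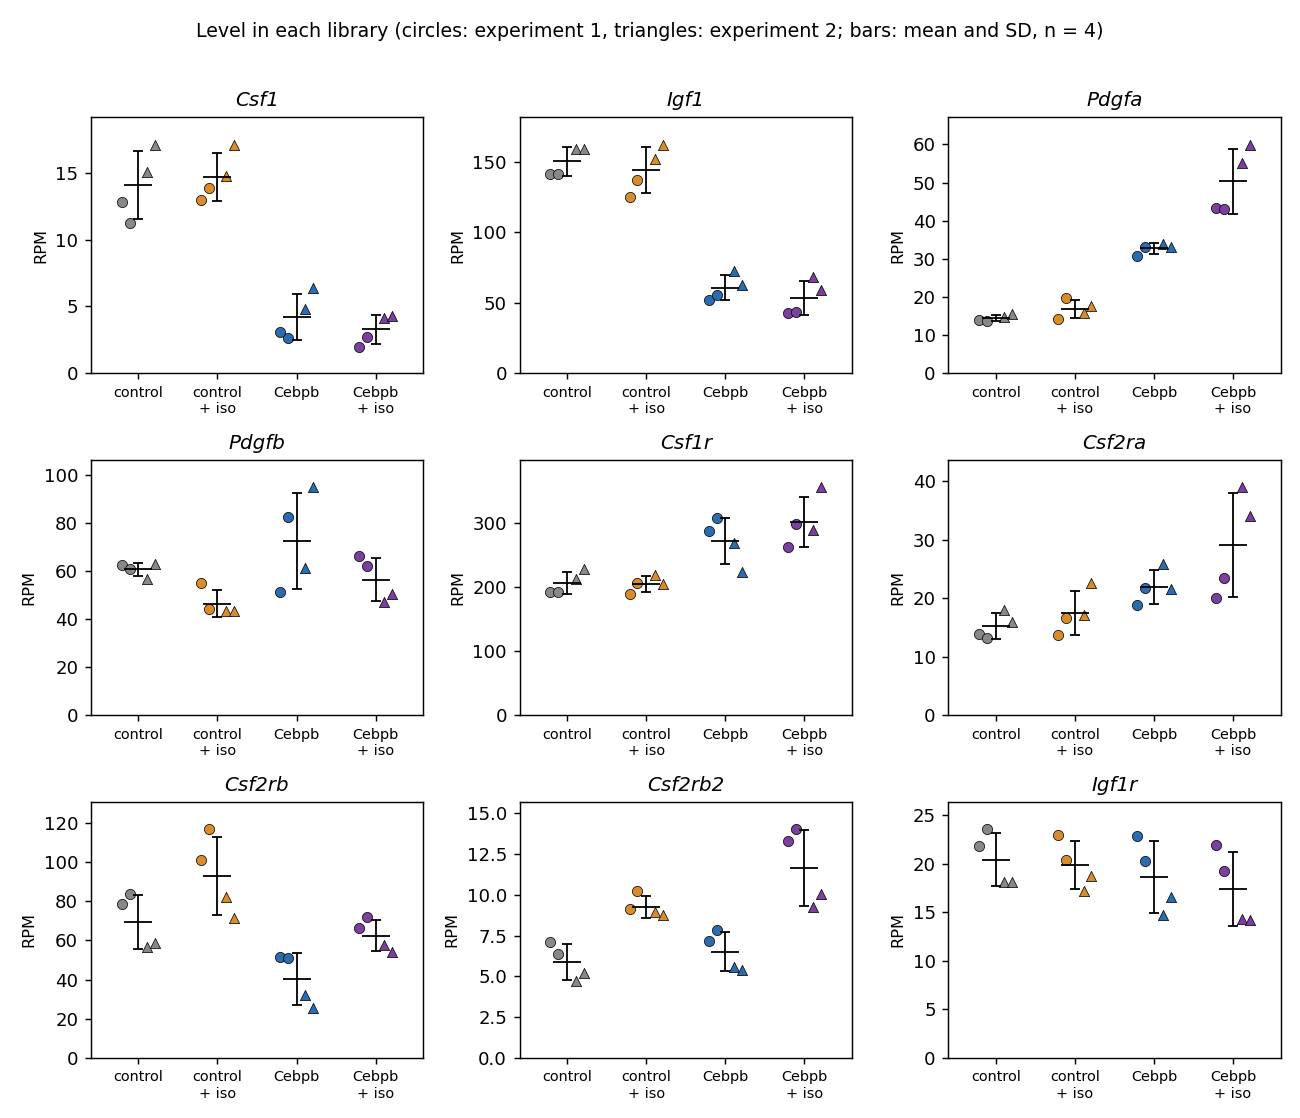
Level in RPM (linear axis from 0) of the 9 tested genes in each of the 16 libraries, by group, with circles for experiment 1, triangles for experiment 2 and bars for the mean and SD of 4 libraries. Csf1 and Igf1 are lower and Pdgfa higher in every Cebpb siRNA library than in every control siRNA library, and Csf2rb2 is higher in every library with isoproterenol than in every library without it.

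Csf1 (chromosome 3, 107741048 to 107760469) encodes the ligand of the Csf1r receptor. It stood at 12.9, 11.3, 15.1 and 17.1 RPM in the control siRNA libraries (experiment 1 replicates 1 and 2, then experiment 2 replicates 1 and 2; the same order is kept below) and at 3.11, 2.60, 4.77 and 6.37 RPM with the Cebpb siRNA. Every Cebpb siRNA library was below every control library. The log2 fold change was −1.73 (SE 0.16, 95% interval −2.06 to −1.40, adjusted p = 3.28e-09, limma), a 3.3-fold lower level, and 1.88% of all tested genes had a larger change in either direction.

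With isoproterenol in both groups, Csf1 was at 13.0, 13.9, 14.8 and 17.1 RPM with the control siRNA and at 1.97, 2.73, 4.12 and 4.25 RPM with the Cebpb siRNA. The groups did not overlap, and the 4.5-fold lower level was the largest change of any member (log2 −2.16, SE 0.16, adjusted p = 7.73e-11, limma; 0.859% of tested genes changed more). The level was higher in experiment 2 than in experiment 1 in all 4 groups, by 0.62 on the log2 scale (adjusted p = 0.000209, limma). The siRNA effect within experiment 1 was −2.03 without isoproterenol and −2.47 with it, and within experiment 2 it was −1.42 and −1.86. The test of the difference between experiments gave adjusted p = 0.572 and 0.445 (limma). In the lowest library the gene rested on 27 reads, so the size of its fall is less precise than that of the more abundant genes.

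Igf1 (chromosome 10, 87858265 to 87937042) encodes insulin-like growth factor 1. Its level was 141, 142, 159 and 159 RPM with the control siRNA and 52.1, 55.7, 72.6 and 62.4 RPM with the Cebpb siRNA. The groups were far apart relative to their spread, at 150 ± 10.3 and 60.7 ± 9.02 RPM (SD, n = 4 each). The 2.4-fold lower level corresponded to a log2 fold change of −1.23 (SE 0.07, adjusted p = 3.49e-12, limma).

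With isoproterenol in both groups, Igf1 was at 125, 137, 152 and 162 RPM with the control siRNA and at 42.4, 43.5, 67.8 and 59.2 RPM with the Cebpb siRNA. Again no library of one group reached the other, and the log2 fold change was −1.39 (SE 0.07, adjusted p = 4.74e-13, limma). An antisense gene, Igf1os, overlaps Igf1, and the sources used here do not say whether counting used strand, so reads of the pair may not be separated.

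Pdgfa (chromosome 5, 138976014 to 138997370) encodes the platelet-derived growth factor A chain. It was at 13.9, 13.6, 14.7 and 15.5 RPM with the control siRNA and at 30.7, 33.2, 34.0 and 33.1 RPM with the Cebpb siRNA. The replicates of both groups lay close together and the groups did not overlap. The level was 2.41-fold higher (log2 1.27, SE 0.09, adjusted p = 7.57e-11, limma), by 1.27 in each experiment.

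With isoproterenol, Pdgfa stood at 14.2, 19.6, 15.7 and 17.5 RPM in the control siRNA group and at 43.2, 43.1, 55.0 and 60.0 RPM in the Cebpb siRNA group, a 3.14-fold higher level (log2 1.65, SE 0.09, adjusted p = 8.76e-13, limma). The highest levels of Pdgfa in the study were the 4 libraries that had received both the Cebpb siRNA and isoproterenol. The siRNA effect in that setting was 1.43 in experiment 1 and 1.87 in experiment 2 (difference between experiments, adjusted p = 0.375, limma).

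Pdgfb (chromosome 15, 79995874 to 80014977), which encodes the B chain, did not pass the test in either siRNA comparison. It was at 62.3, 60.9, 56.7 and 62.9 RPM with the control siRNA and at 51.1, 82.3, 61.2 and 94.9 RPM with the Cebpb siRNA. The Cebpb siRNA libraries spread widely on both sides of the control libraries, with the highest value in the shallowest library. The log2 fold change was 0.30 (SE 0.15, 95% interval −0.01 to 0.61, adjusted p = 0.0873, limma). With isoproterenol it was 0.34 (SE 0.15, adjusted p = 0.051, limma), and this value passed the threshold in 7 of 28 alternative settings. Leaving out a library made it pass for 5 libraries: Cebpb siRNA experiment 1 replicate 1 (adjusted p = 0.0147), Cebpb siRNA experiment 2 replicate 1 (0.0467), Cebpb siRNA experiment 2 replicate 2 (0.00652), control siRNA with isoproterenol experiment 1 replicate 1 (0.0212) and Cebpb siRNA with isoproterenol experiment 2 replicate 1 (0.0403). The comparison without isoproterenol passed without the Cebpb siRNA library of experiment 1 replicate 1 (log2 0.48, adjusted p = 0.00235, limma).

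The 2 chains of the same growth factor family thus gave different values under the Cebpb siRNA, with 95% intervals of 1.08 to 1.46 for Pdgfa and −0.01 to 0.61 for Pdgfb without isoproterenol. Antisense genes overlap both loci, 6330403L08Rik at Pdgfa and Gm41361 at Pdgfb.

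Csf1r (chromosome 18, 61100598 to 61132149) encodes the receptor for CSF-1. It was at 192, 193, 212 and 228 RPM with the control siRNA and at 288, 308, 269 and 223 RPM with the Cebpb siRNA. In all but the shallowest library, experiment 2 replicate 2, the Cebpb siRNA value was above every control value. The level was 1.39-fold higher (log2 0.48, SE 0.08, adjusted p = 4.06e-05, limma), by 0.68 in experiment 1 and 0.27 in experiment 2. Experiment 2 alone did not pass (adjusted p = 0.0866, limma), and the difference between the experiments did not pass either (adjusted p = 0.394, limma).

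With isoproterenol in both groups the Csf1r levels were 189, 206, 219 and 205 RPM with the control siRNA and 263, 299, 289 and 356 RPM with the Cebpb siRNA. These groups did not overlap, and the level was 1.54-fold higher (log2 0.62, SE 0.08, adjusted p = 1.30e-06, limma). The ligand gene Csf1 and its receptor gene Csf1r therefore moved in opposite directions with the Cebpb siRNA in both settings. The protein-coding gene Hmgxb3 overlaps Csf1r on the other strand, so without knowledge of the strand used in counting their reads may not be separated.

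The GM-CSF receptor genes also moved in opposite directions. Csf2ra (chromosome 19, 61223957 to 61228429), the α chain, was at 13.9, 13.2, 18.1 and 15.9 RPM with the control siRNA and at 18.9, 21.7, 25.9 and 21.5 RPM with the Cebpb siRNA. No Cebpb siRNA library fell within the control range, and the level was 1.53-fold higher (log2 0.61, SE 0.11, adjusted p = 4.24e-05, limma). With isoproterenol it was at 13.8, 16.6, 17.2 and 22.6 RPM with the control siRNA and at 20.1, 23.4, 39.0 and 34.1 RPM with the Cebpb siRNA. These groups overlapped across experiments but not within either one, and the level was 1.71-fold higher (log2 0.77, SE 0.11, adjusted p = 2.06e-06, limma).

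Csf2rb (chromosome 15, 78325752 to 78353847), the common β chain, was at 78.8, 83.6, 56.5 and 58.5 RPM with the control siRNA and at 51.7, 51.1, 32.3 and 25.5 RPM with the Cebpb siRNA. Every Cebpb siRNA library was below every control library, and the level was 1.68-fold lower (log2 −0.75, SE 0.09, adjusted p = 1.76e-07, limma). With isoproterenol it was at 101, 117, 82.1 and 71.5 RPM with the control siRNA and at 66.5, 71.8, 57.6 and 54.0 RPM with the Cebpb siRNA. The ranges met at 71.5 and 71.8 RPM, from different experiments, and the log2 fold change was −0.49 (SE 0.09, adjusted p = 4.74e-05, limma).

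Csf2rb2 (chromosome 15, 78282507 to 78305721), the interleukin-3 receptor β chain, was at 7.14, 6.37, 4.71 and 5.23 RPM with the control siRNA and at 7.20, 7.84, 5.56 and 5.41 RPM with the Cebpb siRNA. The groups overlapped, and the log2 fold change of 0.24 (SE 0.10, 95% interval 0.02 to 0.45, adjusted p = 0.0513, limma) did not pass. It passed in 5 of 28 alternatives: without the control siRNA library of experiment 1 replicate 1 (adjusted p = 0.0393, limma), without the control siRNA with isoproterenol library of experiment 1 replicate 1 (0.0479), with genes above the floor in at least 1 library (0.0387), with a floor of 2 RPM (0.0486), and without trend and robust estimation (0.0177). With isoproterenol in both groups it was at 9.15, 10.2, 8.93 and 8.76 RPM with the control siRNA and at 13.3, 14.0, 9.26 and 10.1 RPM with the Cebpb siRNA, a log2 fold change of 0.38 (SE 0.10, adjusted p = 0.00289, limma). The difference was 0.56 in experiment 1 and 0.20 in experiment 2, and experiment 2 alone did not pass (adjusted p = 0.319, limma).

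Csf2rb and Csf2rb2 are neighbours, 20030 bases apart, and their coding sequences are 95.2% identical (2503 of 2628 aligned bases). Of the 50-base words in the coding sequence of Csf2rb, 687 of 2639 also occur in Csf2rb2. The reads here come from the 3′ end, where none of the 351 words in the last 400 bases of the Csf2rb 3′ UTR occurs in that of Csf2rb2. Over the whole UTR 70 of 1767 do. The last 400 bases of the 2 genes are still 86.1% identical (321 of 373 aligned bases). The deposited values tally reads with several matches in an entry of their own, at 19.4 to 22.3% of the reads per library. How reads of this pair divide between the 2 genes and that entry was not tested.

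Igf1r (chromosome 7, 67952827 to 68233668), the receptor for IGF-1, ranged from 18.1 to 23.5 RPM with the control siRNA, 17.2 to 23.0 RPM with isoproterenol added, 14.7 to 22.9 RPM with the Cebpb siRNA and 14.2 to 22.0 RPM with both. All 4 groups overlapped. The siRNA effects were −0.06 (95% interval −0.25 to 0.13, adjusted p = 0.598, limma) and, with isoproterenol, −0.14 (95% interval −0.32 to 0.05, adjusted p = 0.197, limma). Without the scaling of libraries the latter became −0.20 and passed (adjusted p = 0.0457, limma). Csf3r (chromosome 4, 126024550 to 126044440) was listed at 0, which means 1 RPM or less, in 15 libraries and at 1.38 RPM in the control siRNA library of experiment 2 replicate 2.

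**Figure D2:**
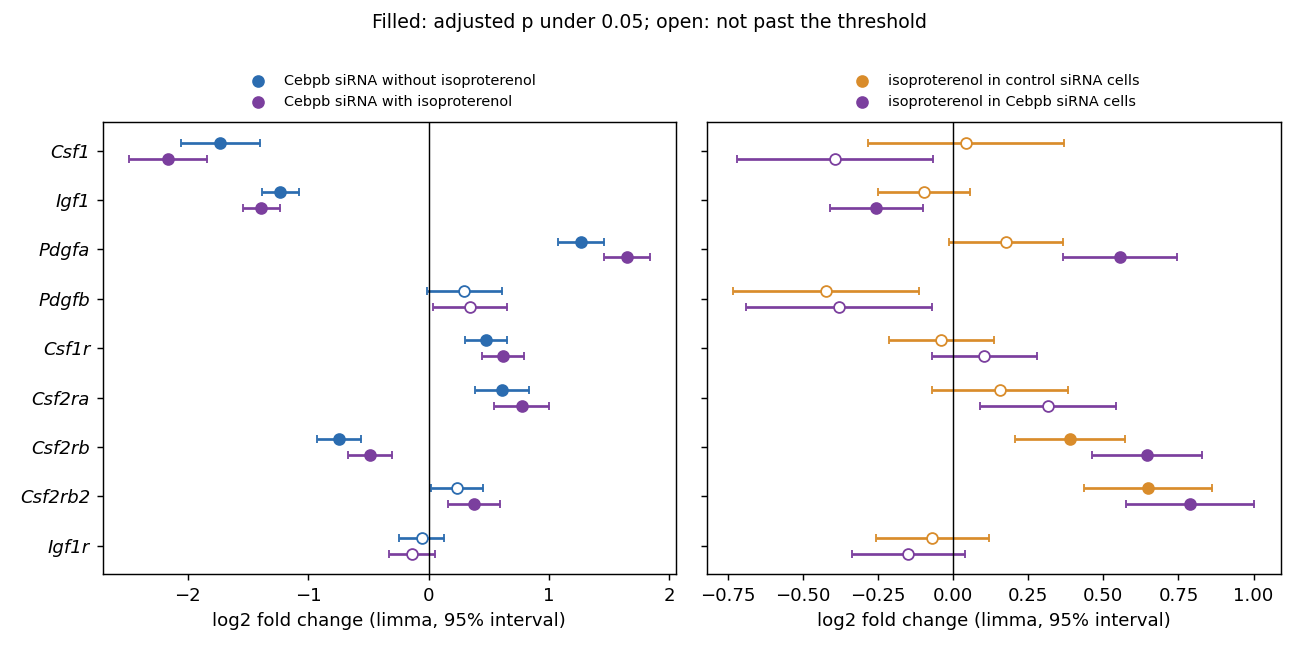
Log2 fold change with its 95% interval (x axis) of the 9 tested genes in the 2 siRNA comparisons (left) and the 2 isoproterenol comparisons (right); filled points passed an adjusted p of 0.05 in limma and open points did not. Csf1 and Igf1 lie left of 0 and Pdgfa right of it in both siRNA comparisons, with 95% intervals clear of 0, and Csf2rb and Csf2rb2 are the genes past the threshold in both isoproterenol comparisons.

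Isoproterenol changed few members, and most clearly the β chain genes of the interleukin-3 and GM-CSF receptors. In control siRNA cells 2 of the 9 tested members were called higher and 0 lower, against a background of 1.21% of all tested genes higher and 0.443% lower. Without the scaling of libraries, the genes called over the whole table were 145 higher and 27 lower, against 134 and 49 with it. The 0 lower calls stood beside 1 member lower at an unadjusted p of 0.05 in limma, Pdgfb, and limma with voom weights on recovered reads also called 2 members, the number called here.

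Csf2rb2 rose from 4.71 to 7.14 RPM in the control siRNA libraries to 8.76 to 10.2 RPM with isoproterenol, and the groups did not overlap. The level was 1.57-fold higher (log2 0.65, SE 0.10, adjusted p = 0.000662, limma), and 0.542% of tested genes changed more. Within experiment 1 the log2 difference was 0.48 and within experiment 2 it was 0.82. With 2 libraries a group, neither experiment passed alone (adjusted p = 0.162 and 0.109, limma).

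Csf2rb was higher with isoproterenol by 1.31-fold (log2 0.39, SE 0.09, adjusted p = 0.021, limma), by 0.38 in experiment 1 and 0.40 in experiment 2. The groups overlapped across experiments, and within each experiment every library with isoproterenol was above every library without it. The size hardly moved with the library left out, but the call was lost without the control siRNA libraries of experiment 1 replicate 1 (adjusted p = 0.0979), experiment 2 replicate 1 (0.0619) and experiment 2 replicate 2 (0.057), and without the control siRNA with isoproterenol libraries of experiment 1 replicate 2 (0.0828) and experiment 2 replicate 1 (0.114).

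Pdgfb did not pass in this comparison, although its 4 libraries with isoproterenol, at 55.0, 44.2, 43.2 and 43.3 RPM, all lay below the 4 control libraries. The log2 fold change was −0.42 (SE 0.15, 95% interval −0.73 to −0.11, adjusted p = 0.219, limma). It passed when only these 2 groups were fitted (adjusted p = 0.00385) and when the Cebpb siRNA library of experiment 2 replicate 2, which is in neither group but enters the shared spread, was left out (0.0303). The other 6 members had log2 fold changes of −0.10 (Igf1) to 0.18 (Pdgfa), none past the threshold.

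In Cebpb siRNA cells isoproterenol gave 3 members called higher and 1 lower, against 3.0% and 2.48% of all tested genes. Without the scaling of libraries the genes called were 455 higher and 153 lower, against 332 and 274 with it. Csf2rb2 went from 5.41 to 7.84 RPM to 9.26 to 14.0 RPM (log2 0.79, SE 0.10, adjusted p = 3.19e-05, limma) and Csf2rb from 25.5 to 51.7 RPM to 54.0 to 71.8 RPM (log2 0.64, SE 0.09, adjusted p = 5.61e-05, limma). In both genes no library with isoproterenol reached down to those without it. The difference for Csf2rb was 0.40 in experiment 1 and 0.89 in experiment 2 (difference between experiments, adjusted p = 0.428, limma).

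Pdgfa rose from 30.7 to 34.0 RPM to 43.1 to 60.0 RPM, a 1.47-fold higher level without overlap (log2 0.56, SE 0.09, adjusted p = 0.000491, limma). The difference was 0.40 in experiment 1, which did not pass alone (adjusted p = 0.102, limma), and 0.71 in experiment 2. The fourth call, Igf1, was small and close to the threshold (log2 −0.26, SE 0.07, adjusted p = 0.0449, limma). Its groups, at 52.1 to 72.6 and 42.4 to 67.8 RPM, overlapped, and its call was lost in 21 of 28 alternatives. Leaving out a library ended the call for 13 of the 16 libraries, with adjusted p-values from 0.0503 to 0.146; the 3 exceptions were control siRNA experiment 1 replicate 2, Cebpb siRNA experiment 2 replicate 2 and Cebpb siRNA with isoproterenol experiment 2 replicate 1. Csf2ra (log2 0.32, adjusted p = 0.0996), Csf1 (−0.39, 0.166) and Pdgfb (−0.38, 0.159) did not pass in limma. Without the Cebpb siRNA with isoproterenol library of experiment 1 replicate 1 Csf2ra passed (0.41, 0.032), and without the Cebpb siRNA library of experiment 1 replicate 1 Pdgfb passed (−0.56, 0.00896).

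Whether isoproterenol acted differently in the 2 siRNA settings was tested as the difference of its effects. In limma 0 of the 9 members passed, against a background of 0.118% of all tested genes higher and 0.118% lower, which is 13 genes in each direction (13 and 8 without the scaling of libraries). Limma with voom weights also called 0 members, and 1 member, Pdgfa, had an unadjusted p under 0.05. Pdgfa's isoproterenol effect was larger in Cebpb siRNA cells by 0.38 on the log2 scale (SE 0.13, 95% interval 0.11 to 0.65, adjusted p = 0.467, limma), so the call for Pdgfa in Cebpb siRNA cells and its absence in control siRNA cells were not shown to differ. For Csf2rb the difference was 0.26 (95% interval −0.002 to 0.514) and for Csf2rb2 0.14 (95% interval −0.16 to 0.44).

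The order of the 4 groups by mean level can be read gene by gene. For Pdgfa it was control siRNA (14.4 ± 0.877 RPM), control siRNA with isoproterenol (16.7 ± 2.30), Cebpb siRNA (32.7 ± 1.40) and both (50.3 ± 8.53; SD, n = 4 each), and the first pair overlapped. For Csf1 it was both (3.27 ± 1.11 RPM), Cebpb siRNA (4.21 ± 1.71), control siRNA (14.1 ± 2.55) and control siRNA with isoproterenol (14.7 ± 1.77), with overlap between the first and between the last pair. Csf2rb ran from Cebpb siRNA (40.1 ± 13.3 RPM) through both (62.5 ± 8.14) and control siRNA (69.3 ± 13.8) to control siRNA with isoproterenol (92.9 ± 20.1). The Csf2rb levels with both treatments and with neither overlapped.

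**Figure D3:**
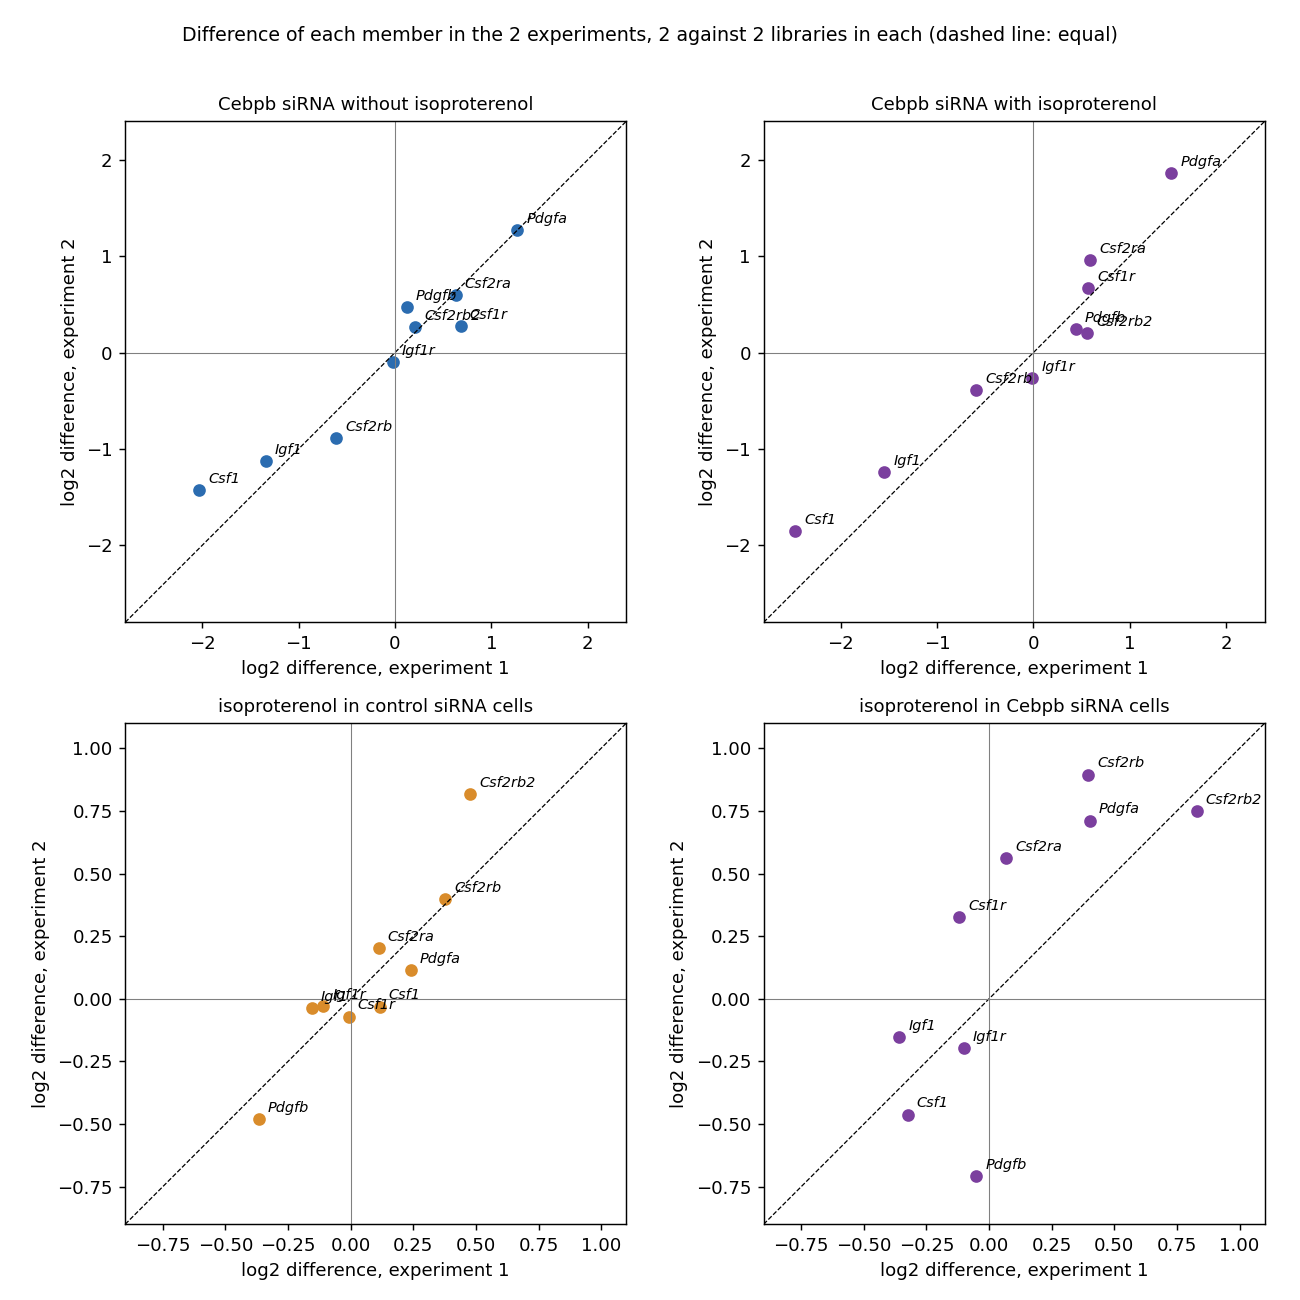
Log2 difference of each tested gene in experiment 1 (x axis) and experiment 2 (y axis), 2 against 2 libraries in each, for the 4 comparisons; the dashed line marks equal differences. In the siRNA comparisons Csf1, Igf1, Csf2rb, Pdgfa, Csf1r and Csf2ra have the same sign in both experiments, while with isoproterenol in Cebpb siRNA cells Csf1r is at −0.12 in experiment 1 and 0.33 in experiment 2.

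The experiments also differed in baseline. Across all groups 6 of the 9 members differed between them (limma), Csf1, Csf2ra and Igf1 being higher in experiment 2 and Csf2rb, Csf2rb2 and Igf1r lower, by 0.33 to 0.62 and by 0.38 to 0.54 on the log2 scale. Of all tested genes, 17.4% were called higher and 15.5% lower in experiment 2. No member's response was called different between the experiments in any comparison in limma. Over all tested genes 0.118% were called for the siRNA without and 0.108% with isoproterenol, and 0% for isoproterenol in either siRNA setting. At an unadjusted p of 0.05 there were 2 and 3 of the 9 members for the siRNA without and with isoproterenol, against 885 and 1162 of 11060 genes. For isoproterenol there were 4 members in Cebpb siRNA cells, against 1187 genes, and 0 with the control siRNA, against 197 genes.

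The likeness of other genes was measured as Pearson's r of the log2 level over the 16 libraries, after the mean of each experiment was taken off, among 6880 genes of at least 10 RPM. These libraries fall into 4 groups of which those with and without the Cebpb siRNA stand far apart. A high r can reflect the groups, and it is given as a description. For Csf2rb2 the isoproterenol effects (log2 0.65 and 0.79) were larger than the siRNA effects (0.24 and 0.38). Igf1r and Pdgfb had no called siRNA effect. Igf1 was most like Pola1, Nrp1 and Haus8 (0.994 each), and Csf1 most like Chaf1a (0.988), Snx30 (0.985) and Tecpr1 (0.985). Pdgfa was most like Adcy7 and Ccnd2 (0.992 each) and Rab11fip1 (0.991). Csf1r was most like Ppp2r5a (0.986), Plod1 (0.979) and Atg101 (0.978), and Csf2ra most like Atp5e (0.968), Ndufa13 (0.967) and Capg (0.961).

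The genes most like Csf2rb2 were Fosl2 (0.934), Crem (0.923) and Prdx2 (0.913), of which Crem encodes a cyclic AMP responsive transcription factor and Fosl2 a member of the Fos family. Csf2rb was most like Gosr2 (0.945), Mxi1 (0.938) and Mphosph8 (0.937), Pdgfb most like Elmo1 (0.928), Pfn1 (0.912) and Psmd5 (0.889), and Igf1r most like Edrf1 (0.849), Mdn1 (0.839) and Tmem18 (0.83). Among the members themselves, r was 0.975 for Csf1 with Igf1, 0.95 for Csf2ra with Pdgfa and −0.961 for Igf1 with Pdgfa. It was only 0.276 for the neighbours Csf2rb and Csf2rb2.

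Of 35 other ligand and receptor genes of these families, 26 were listed at 0, that is at 1 RPM or less, in all 16 libraries, among them the ligand genes Csf2, Csf3 and Il34 and the receptor genes Pdgfra and Pdgfrb, and 7 were tested. With the Cebpb siRNA 1 was called higher and 3 lower, against 30.9% and 30.4% of all tested genes. With isoproterenol present 3 were higher and 3 lower, against 31.6% and 30.3%. The lower genes were Vegfb, a vascular growth factor (log2 −0.83 without and −0.87 with isoproterenol), Hbegf, an EGF receptor ligand (−1.26 and −1.01), and Flt3l, a dendritic cell growth factor (−0.74 and −0.73). Hbegf was at the floor in 1 Cebpb siRNA library without isoproterenol, so the first of its values is understated. Igf2r, which clears IGF-2, rose (0.55 and 0.52). Kitl, the stem cell factor gene, was the one changed by isoproterenol in control siRNA cells (log2 −0.44, SE 0.07, adjusted p = 0.00125, limma), and it was 0.19 higher with the Cebpb siRNA in the presence of isoproterenol.

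Of 13 genes for IGF binding proteins and proteases, 10 were at 0 throughout and 3 were tested. Adam17, the sheddase that releases CSF1R and other surface proteins, fell with the Cebpb siRNA by 0.95 without and by 1.22 with isoproterenol on the log2 scale (adjusted p = 2.28e-12 and 3.57e-14, limma). Its isoproterenol effect in Cebpb siRNA cells was −0.25 (adjusted p = 0.0087, limma). Igfbp4 fell by 0.22 without isoproterenol, and Furin, a proprotein convertase, rose by 0.66 with it.

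Downstream of the receptors, 33 of 40 signalling genes were tested. With the Cebpb siRNA 15 rose and 9 fell, against 30.9% and 30.4% of all tested genes. With isoproterenol present 15 rose and 7 fell, against 31.6% and 30.3%. The list's median log2 fold change was 0.13 and 0.11 against 0.01 and 0.02 over all genes. Inpp5d, which encodes the phosphatase SHIP1, rose by 0.64 and 0.97 on the log2 scale. Stat3 rose by 0.84 and 0.73, the adaptor Grb2 rose by 0.67 and 0.72, and the kinase Jak1 fell by 0.84 and 0.85. Isoproterenol lowered Pik3cd in control siRNA cells (−0.25, adjusted p = 0.0285, limma) and raised Inpp5d (0.48) and Syk (0.30) in Cebpb siRNA cells.

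Of 25 transcription factor genes linked to Csf1r and other myeloid receptor genes, 22 were tested, Cebpb among them. With the Cebpb siRNA 11 rose and 7 fell, against 30.9% and 30.4% of all tested genes. With isoproterenol present 10 rose and 7 fell, against 31.6% and 30.3%. The genes that fell include Cebpb itself, the target of the siRNA. Fos rose (log2 1.71 and 1.15), Klf4 rose (0.61 and 1.21) and Cebpd rose (0.85 and 0.23), while Bhlhe41 (−1.18 and −1.41) and Irf8 (−0.70 and −0.74) fell. Isoproterenol raised 4 of the 22 in control siRNA cells and 5 in Cebpb siRNA cells, and lowered 0 in either. Of all tested genes it raised 1.21% and lowered 0.443% in control siRNA cells, and 3.0% and 2.48% in Cebpb siRNA cells. Fos rose by 1.44 and by 0.88, and Klf4 (0.78) and Maf (0.41) rose in Cebpb siRNA cells. The difference of the isoproterenol effects was called for 1 gene of the list, Cebpd (−0.62, adjusted p = 0.0447, limma), with effects of 0.43 in control siRNA and −0.19 in Cebpb siRNA cells.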

How the data were processed

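Per the labels' protocols, 16 libraries of RAW 264.7 RNA (4 groups of 4, from 2 experiments) were made with QuantSeq 3′ FWD, which reads transcripts from the 3′ end. The submitters' processing notes name STAR 2.5.3a and GRCm38; for the counting tool and its use of strand, nothing is stated in those sources. The authors deposited log2 values: log2 of reads per 1e+06 sequenced reads (RPM), entries of 1 RPM or less appearing as 0. The scale was read off the values, since 100% of entries return whole reads within 0.1 read.

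Scaling used a trimmed mean of log ratios (30% of ratios and 5% of levels trimmed). Values below a common floor of 1.07 RPM were set to it, and the 11060 genes exceeding it in 4 or more libraries were fitted in limma 3.58.1 (R 4.3.3; trend, robust) with group and experiment as terms. In 1380 of these genes 1 or more libraries sat at the floor, which understates differences. P-values were adjusted by Benjamini-Hochberg over all genes, with a threshold of 0.05. RPM in the text is unscaled. The fit was tested on simulated data in which a small share of genes changed, equally up and down. Its error rate where most genes change, as in the siRNA comparisons, was not tested. Count tests were planned, but the files hold log2 values, so limma was used; limma with voom weights on recovered reads was added as an alternative, chosen after seeing the data.

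Named genes are all 10 members, Cebpb, up to 5 called genes per list with the smallest adjusted p for the siRNA and up to 3 for isoproterenol, and the 3 genes most like each member. A gene that this rule selects is not reported here. A few genes listed at 0 and named for their part in these families were chosen after their values were seen. The members and lists were chosen with earlier results of these data known. Gene positions and 3′ UTRs come from GENCODE on GRCm38, and promoters from RefSeq on GRCm38.p6; the promoters of Csf1r, Csf2rb and Pdgfb were not used here. Whether same-numbered libraries are paired was not settled, and the main fit holds no term for it. Replicates count reads without molecular identifiers, so read numbers cover counting error only.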

Additional observations from a re-analysis of the deposited data

Results flagged for a closer look

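Gaps between a library and the rest of its group were examined in 37 groups of 4 libraries, of which chance flags about 1 in 20, and 3 stood apart. Csf3r was above the floor only in the control siRNA library of experiment 2 replicate 2, at 1.34 scaled RPM against a floor of 1.07, so the gap was 1 of the range. With the other 3 libraries at the floor, any value above it gives this gap, so the rate of 1 in 20 does not apply to this flag. Pdgfb was lowest in the control siRNA library of experiment 2 replicate 1, at 55.5 scaled RPM with the next at 60.8, a gap of 0.897 of the range. Pdgfb was highest in the control siRNA with isoproterenol library of experiment 1 replicate 1, at 54.3 scaled RPM with the next at 41.9, a gap of 0.946 of the range.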

How the results depend on the processing

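Of the 19 member results past the threshold, their 532 alternative values kept direction and call in 494, lost the call in 38 and reversed in 0. The falls of Csf1 and Igf1 and the rise of Pdgfa with the Cebpb siRNA passed in all 28 alternatives run, in both settings. For isoproterenol in control siRNA cells the number of members called was 0 with no term for the experiment, 1 in experiment 1 alone, 0 in experiment 2 alone, 1 without trend and robust estimation, and 1 to 3 when a library was left out. For isoproterenol in Cebpb siRNA cells it was 2 with no term for the experiment, and 3 to 4 when a library was left out. Signs reversed only in results that had not passed. In experiment 1 alone these were Csf1r with isoproterenol in Cebpb siRNA cells (−0.12) and the differences of the isoproterenol effects of Csf1r (−0.11), Csf2ra (−0.042) and Igf1r (0.0087). In experiment 2 alone they were Csf1 with isoproterenol in control siRNA cells (−0.031) and the differences of Csf2rb2 (−0.066) and Pdgfb (−0.23). With a library left out, Csf1 with isoproterenol in control siRNA cells ranged from −0.0326 to 0.147 and the difference of Pdgfb from −0.144 to 0.233. The cause was not tested. With the replicate number as a block, the members called were 2, 6, 7, 3 and 0 in the order control siRNA cells with isoproterenol, the siRNA without and with isoproterenol, Cebpb siRNA cells with isoproterenol, and the difference. The correlation of same-numbered libraries across groups ran from −0.366 to 0.424, with medians of 0.0291 in experiment 1 and −0.151 in experiment 2. These values do not settle whether the numbers pair the libraries. In both Cebpb siRNA groups the unmapped share was higher in replicate 2 than in replicate 1 of each experiment. In both control siRNA groups it was lower. The block ended the call of Igf1 with isoproterenol in Cebpb siRNA cells (adjusted p = 0.0589, limma) and no other. Planned count tests were not run because the files hold log2 values. Csf1 rested on as few as 27 reads in a library, and Csf3r could not be tested.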
